A study of Mus musculus with 768 samples.

Results

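The 27 genes described here encode the enzymes that build cholesterol and fatty acids and the factors that set their transcription. They were listed by symbol, and all 27 were found among the 52636 genes of the deposited count tables. By role they comprised 6 enzymes of the mevalonate pathway, 11 enzymes from squalene to cholesterol, 3 regulators and 7 genes of fatty acid synthesis. The first 17 are together called the cholesterol genes below.

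Cells were taken on postnatal day 2 from mice that carried Fgfr3-CreERT2, Ai14-tdTomato and Sox2-GFP. In Fgfr3-CreERT2 a tamoxifen-inducible Cre is driven from Fgfr3, Ai14-tdTomato is a red reporter switched on by Cre, and Sox2-GFP is a green reporter of Sox2. A flow sort for the greater epithelial ridge (GER), which is the cochlear epithelium on the inner side of the hair cells, gave the cells that were grown as organoids. All cultures received the same medium, DMEM/F-12 with N-2 and B-27 supplements, ampicillin, 2-phospho-L-ascorbic acid, valproic acid, the TGFβ receptor inhibitor 616452, CHIR99021 (which inhibits GSK3) and the growth factors IGF1, FGF2 and EGF. There was no untreated group, so day 1 is the reference. Single cells were picked by hand and sequenced by SmartSeq2, which copies whole transcripts and carries no molecular identifiers. The labels give each of the 768 cells a day and a replicate number, and the replicate was taken as the culture. This gave 3 cultures for day 1, 3 for day 3 and 5 for day 7. The labels do not say whether the replicates came from separate animals, so p-values measure the spread between these cultures, which may be technical.

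Cholesterol is made from acetyl-CoA by way of mevalonate, farnesyl pyrophosphate, squalene and lanosterol. When sterols are low in the endoplasmic reticulum, the transcription factors SREBP1 and SREBP2 (genes Srebf1 and Srebf2) are carried to the Golgi, cut and released to the nucleus, where they switch on most genes of the pathway. INSIG1 holds SREBP back when sterols are plentiful. In the cochlea, membrane cholesterol is known to affect the stiffness and the channels of sensory cells, and dividing cells of any kind need sterols and fatty acids for new membrane.

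Of the 768 cells, 711 were retained, 182 for day 1, 228 for day 3 and 301 for day 7. Their counts were summed per culture, to between 26391412 and 72483565 reads on genes. Values are CPM, the count of a gene scaled to a common library total after normalisation for library composition. Summed CPM of the epithelial markers Epcam, Cdh1, Krt8 and Krt18 ranged from 2915 to 4973 on day 1. The sums were 2982 to 4920 on day 3 and 1566 to 2456 on day 7, lower than on both earlier days without overlap. The 4 markers of the GER and supporting cells (Sox2, Tecta, Tectb and Otog) summed to between 8970 and 13327 CPM on day 1, 3403 and 7128 on day 3, and 1881 and 3728 on day 7. Of these, Tectb lay between 6628 and 11411 CPM on day 1 and between 360 and 1341 on day 7, while Tecta was at 1139 CPM or more in every culture. The part of these marker levels in the differences between days was not tested. Endothelial Pecam1 was at 0 in all 11 cultures and Cdh5 at most at 0.47 CPM. The 4 macrophage and blood markers summed to between 0.347 and 9.06 CPM, the 3 neuronal markers to between 3.75 and 30.7 CPM, both highest on day 1, and the 5 mesenchyme markers summed to at most 2.76 CPM outside day 3 culture 3, which had 40.5. Hair cell markers summed to between 0 and 20.5 CPM on day 1, highest in culture 1. They summed to between 10.4 and 89.5 CPM on day 3 and to at most 4.11 CPM on day 7. Day 7 culture 5 differed from the other day 7 cultures in quality, with a median of 5681 genes per cell (6201 to 7155.5 in the others) and 6.76% mitochondrial reads (3.90% to 4.51%). Fewer cells that transcribe a gene and less RNA per cell cannot be told apart in summed counts.

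Promoter sequences are shown because SREBP acts on sterol regulatory elements with the help of NF-Y, a factor that binds CCAAT. RefSeq windows of 300 bases (GRCm38.p6, from 250 bases before to 50 after a transcript start) were found for 22 of the 27 genes. Letters were searched on both strands, so CCAAT also reads as ATTGG. They had to match exactly, so near forms of an element were not counted. The core TCACNCCAC was found in 1 of these 22 genes, Hmgcs1, which makes HMG-CoA at the head of the mevalonate pathway, against 1.36% of the tested genes that have a window. A longer form of 10 letters was in none of the 22 and in 0.0614% of the tested genes. CCAAT stood in the windows of 20 of the 22, and in all 14 cholesterol genes that have one, against 42.5% of the tested genes. The GC box GGGCGG was in 18 of 22 (67.6% of tested genes) and the E-box CACGTG in 4 of 22 (11.5%). A match is a description and not a measured binding site. The Hmgcs1 promoter up to its start, on the plus strand, is given with the sterol core, 133 bases upstream of the start, and 3 CCAAT motifs in capitals.
Hmgcs1, chr13:119690101-119690350: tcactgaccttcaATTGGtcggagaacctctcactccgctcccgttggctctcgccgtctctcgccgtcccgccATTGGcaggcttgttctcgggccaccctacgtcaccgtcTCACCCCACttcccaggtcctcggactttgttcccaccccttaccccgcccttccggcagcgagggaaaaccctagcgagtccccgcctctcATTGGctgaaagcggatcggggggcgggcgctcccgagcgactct

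For 6 other genes that the results below turn on, 29 bases around an upstream CCAAT motif (in capitals) are compared. These genes were chosen after their values were seen. Each sequence reads on the strand of its gene, which is the minus strand for Cyp51, Msmo1 and Tm7sf2 and the plus strand for the others.
Idi1, chr13:8885549-8885577: tgcctccagctgATTGGcgagcccgggca
Lss, chr10:76531531-76531559: ggtgatgctctgATTGGccgagctcgcat
Cyp51, chr5:4104710-4104738: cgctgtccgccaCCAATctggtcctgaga
Msmo1, chr8:64733617-64733645: gagtggggcggaCCAATtacgacaggcga
Dhcr7, chr7:143830153-143830181: aatccacttccgATTGGtcgtctgtgacc
Tm7sf2, chr19:6067881-6067909: ctcccagcgctgATTGGctactgtgctgg
The motif lay 27 bases upstream of the start in Cyp51, 43 in Idi1, 45 in Tm7sf2, 47 in Dhcr7, 53 in Msmo1 and 60 in Lss. Where a window held more motifs, only 1 is shown. Others lay 12 bases upstream in Idi1, 83 in Dhcr7, and 94 and 158 in Msmo1. The Dhcr7 windows chr7:143822917-143823216 and chr7:143823149-143823448, at other starts of the gene, held 0 CCAAT. Over the 14 cholesterol genes with a window, the motif nearest to the start lay at -12 (downstream) to 134 bases upstream.

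Every gene of the set was transcribed on all 3 days. After each cell was thinned to 200000 reads, Scd2 had a read in 95.3% of cells, Fdps in 93.7% and Acly in 90.8%, while Acss2 had one in 29.6% and Acaca in 42.4%. Levels per kilobase of exon were compared for the 23 genes whose annotation version matched. The length joined all annotated exons of a gene, for example 10.2 kb for Acss2 and 10.8 kb for Lss. It can exceed the length of any single transcript, which lowers the level per kb. On day 1 Fdps, which makes farnesyl pyrophosphate, was the highest at 73.5 ± 23.7 CPM per kb (SD, n = 3), followed by Hmgcs1 at 56.4 ± 12.9 and Fdft1, which makes squalene, at 55.7 ± 20.0. These neighbours differed by less than their spread. The lowest were Acaca, the carboxylase that commits acetyl-CoA to fatty acids, at 1.35 ± 0.119 CPM per kb, and Acss2, which activates acetate, at 2.11 ± 0.986. On day 7 Insig1 had the highest mean, 101 ± 68.0 CPM per kb (SD, n = 5), with Fdps next at 90.8 ± 22.6, again within the spread.

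The first comparison asked how the set changed with days in culture. Between day 1 and day 3, none of the 27 genes passed the test (edgeR quasi-likelihood test, Benjamini-Hochberg adjusted p under 0.05), against 0.0115% of the 17466 genes tested, which is 2 genes. At an unadjusted p under 0.05 there were 1 of 27 and 9.26% of all genes. The 1 gene was Tm7sf2, a reductase of the sterol C14 double bond, with an adjusted p of 0.186. With DESeq2 it was the 1 gene of the set called, among 259 genes in all. The next smallest p-values belonged to Hsd17b7, a sterol ketoreductase, and to 3 fatty acid genes. Hsd17b7 measured 51.2, 76.7 and 40.9 CPM on day 1 and 41.7, 34.9 and 42.3 CPM on day 3. Fasn, the fatty acid synthase, measured 144, 107 and 87.2 CPM and then 89.3, 58.0 and 91.2 CPM. In both genes the days overlapped, as they did in Acss2 (16.9, 33.0 and 14.5 against 20.9, 31.5 and 54.6 CPM) and in Scd2 (371, 224 and 185 against 233, 121 and 199 CPM). The edgeR adjusted p of these 4 genes ranged from 0.622 to 0.729.

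By day 7, Srebf1 had risen and Tm7sf2 had fallen relative to day 1, and the other 25 genes did not pass the test. That is 2 of 27, against 7.11% of all genes tested. Of the 1241 genes called in all, 620 were higher on day 7, and with upper-quartile scaling 464 of 1214 were. Between day 3 and day 7 none of the 27 passed (0.968% of all genes did, which is 169), with 3 of 27 and 11.8% of all genes at an unadjusted p under 0.05. DESeq2 called 2 of the 27 in that step, Srebf1 and Scd1. The 5 smallest p-values of the step belonged to Srebf1 (log2 1.24 ± 0.35 SE, edgeR adjusted p = 0.137), Scd1 (0.83 ± 0.25, adjusted p = 0.169), Insig1 (1.32 ± 0.47), Idi1 (0.60 ± 0.28) and Elovl6 (0.49 ± 0.23, adjusted p = 0.440), all higher on day 7 in the mean.

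Srebf1 (chr11:60199089-60222581, minus strand, GRCm38) encodes SREBP1, the SREBP form best known for fatty acid genes. It measured 37.9, 32.7 and 16.9 CPM in the 3 day 1 cultures. On day 3 it measured 55.3, 32.0 and 34.6 CPM. The 5 day 7 cultures had 83.9, 140.2, 102.3, 100.7 and 51.9 CPM. All day 7 cultures lay above all day 1 cultures, whereas day 3 overlapped with both. The rise from day 1 to day 7 was 3.28-fold (log2 1.71 ± 0.35 SE, edgeR adjusted p = 0.0152). It was no longer called without day 1 culture 2 (log2 1.81, adjusted p = 0.0508) or day 1 culture 3 (log2 1.44, adjusted p = 0.0567). Nor was it called in non-cycling cells alone (log2 1.23, adjusted p = 0.145) or within the first (1.44, adjusted p = 0.188) or the second deposited file (1.06, adjusted p = 0.322). The share of cells with a Srebf1 read was 44.4 ± 9.48% on day 1 and 70.9 ± 15.98% on day 7 (SD, n = 3 and 5). In this measure the days overlapped, with 42.7% in day 7 culture 5 and 46.2% and 52.9% in day 1 cultures 1 and 2.

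Tm7sf2 measured 76.5, 95.2 and 52.4 CPM on day 1. It then measured 22.4, 31.2 and 28.1 CPM on day 3, and 28.01, 47.6, 32.9, 30.1 and 17.5 CPM on day 7. In CPM every later culture was below every day 1 culture, and days 3 and 7 overlapped. The share of cells with a Tm7sf2 read overlapped between days 1 and 7. It was 65.8% in day 1 culture 3, and 67.6% and 69.6% in day 7 cultures 2 and 3. From day 1 to day 7 the CPM of Tm7sf2 fell by 1.26 ± 0.29 (SE) on the log2 scale, a level 2.39-fold lower, with an edgeR adjusted p of 0.0242. Without day 1 culture 1 or 2 the adjusted p was 0.0685 or 0.105. It was not called in non-cycling cells alone (log2 -1.80, adjusted p = 0.0713) or within the first (-1.19, adjusted p = 0.229) or the second file (-2.07, adjusted p = 0.0974). Genes with non-overlapping day 1 and day 7 cultures made up 8.71% (higher) and 9.06% (lower) of those tested, and of the 27 genes 1 was in each class. From day 1 to day 3, 8.11% of genes were lower without overlap, and Tm7sf2 was the 1 of the set.

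**Figure D1:**
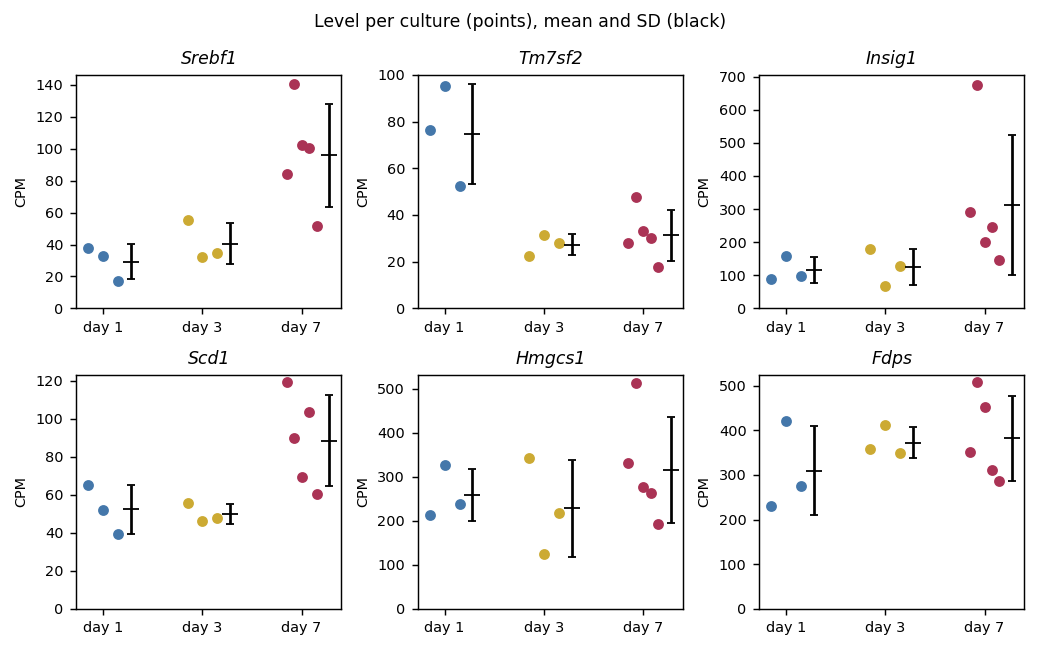
CPM of 6 genes in each culture (points) by day, with the mean and SD in black (3, 3 and 5 cultures). Srebf1 lies between 51.9 and 140.2 CPM on day 7 and at most at 37.9 on day 1, Tm7sf2 lies above 52 CPM on day 1 alone, and Hmgcs1 and Fdps overlap across days.

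The other regulators did not pass the test. Insig1, which restrains SREBP and is itself a target of it, measured 88.3, 159.8 and 99.1 CPM on day 1, 178, 68.8 and 128 CPM on day 3, and 292.4, 675.6, 201.1, 246.4 and 144.7 CPM on day 7. Days 1 and 7 overlapped through day 7 culture 5 alone. Its log2 change was 1.43 ± 0.47 (SE) with an edgeR adjusted p of 0.0880. Day 7 culture 2 stood far above the others, and without it the change was 0.93 (adjusted p = 0.136), while without day 7 culture 5 it was 1.61 (adjusted p = 0.0498). Srebf2, which encodes the form that mainly drives cholesterol genes, averaged 47.2 ± 11.4 CPM (SD, n = 3) at the start, 48.7 ± 21.4 on day 3 and 55.2 ± 22.1 on day 7. Its change to day 7 (log2 0.23 ± 0.36 SE) was smaller than its error.

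None of the 6 mevalonate genes passed the test between days. Hmgcs1 (chr13:119690379-119708260, plus strand) averaged 259 ± 59.2 CPM on day 1, 228 ± 110 on day 3 and 315 ± 121 on day 7. Idi1, the isomerase of isopentenyl pyrophosphate, had the largest difference of this group on day 7, at 108, 175 and 98.7 CPM on day 1, 168, 92.5 and 146 CPM on day 3, and 170, 265, 251, 198 and 141 CPM on day 7 (log2 0.69 ± 0.28 SE, edgeR adjusted p = 0.153). Its days overlapped, since day 1 culture 2 exceeded 2 of the day 7 cultures. Mvk, Pmvk and Mvd, the kinases and the decarboxylase that follow mevalonate, had log2 differences of -0.05, 0.18 and 0.06.

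Among the 11 genes of the squalene and sterol steps, Tm7sf2 was the 1 called. Lss, which closes the sterol rings to lanosterol, measured 76.2, 81.7 and 71.3 CPM on day 1. On day 7 it ranged from 38.4 CPM in culture 5 to 213 CPM in culture 2 (log2 0.72 ± 0.41 SE, adjusted p = 0.317). Fdft1 had a log2 difference of -0.52 ± 0.26 (adjusted p = 0.252). Sqle, the epoxidase that is a slow step of the pathway, averaged 251 ± 19.8 CPM on day 1 and 246 ± 64.3 on day 7. Nsdhl, Ebp and Sc5d, which act between lanosterol and cholesterol, had log2 differences of -0.04 ± 0.27, 0.05 ± 0.22 and 0.25 ± 0.24 from day 1 to day 7.

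The median log2 difference of the 17 cholesterol genes from day 1 to day 7 was 0.06, with 11 of 17 above 0, beside a median of 0.00 over all genes tested. This median had no stable sign. It was -0.01 with RLE scaling, -0.04 with upper-quartile scaling and -0.17 without day 7 culture 2. It was 0.42 among the cultures of the first deposited count file and -0.52 among those of the second, and -0.38 (2 of 17 above 0) in non-cycling cells. The 2 files hold different cultures, and day 7 culture 5 is the only day 7 culture of the second.

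Of the 7 fatty acid genes none passed the test between days. Scd1, a desaturase that makes oleic and palmitoleic acid, measured 65.1, 52.2 and 39.5 CPM on day 1, 55.6, 46.1 and 47.6 CPM on day 3, and 119.1, 89.7, 69.5, 103.6 and 60.6 CPM on day 7. Day 7 culture 5 alone lay below a day 1 culture, and all day 7 cultures lay above all day 3 cultures, as in 2.99% of genes tested. The log2 difference from day 1 to day 7 was 0.76 ± 0.25 (SE) with an edgeR adjusted p of 0.0850, and 0.87 (adjusted p = 0.0439) without day 7 culture 5. Its paralog Scd2 had a difference of 0.00 ± 0.30, and reads of the 2 may be split uncertainly. Fasn had a difference of -0.38 ± 0.25, and Acly, which cleaves citrate to cytosolic acetyl-CoA, of 0.34 ± 0.38. Elovl6, an elongase, was even on day 1 at 93.0, 94.4 and 88.5 CPM. It measured 89.1, 57.0 and 87.4 CPM on day 3 and 77.7, 103, 155, 114 and 95.5 CPM on day 7, with overlap between all days.

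**Figure D2:**
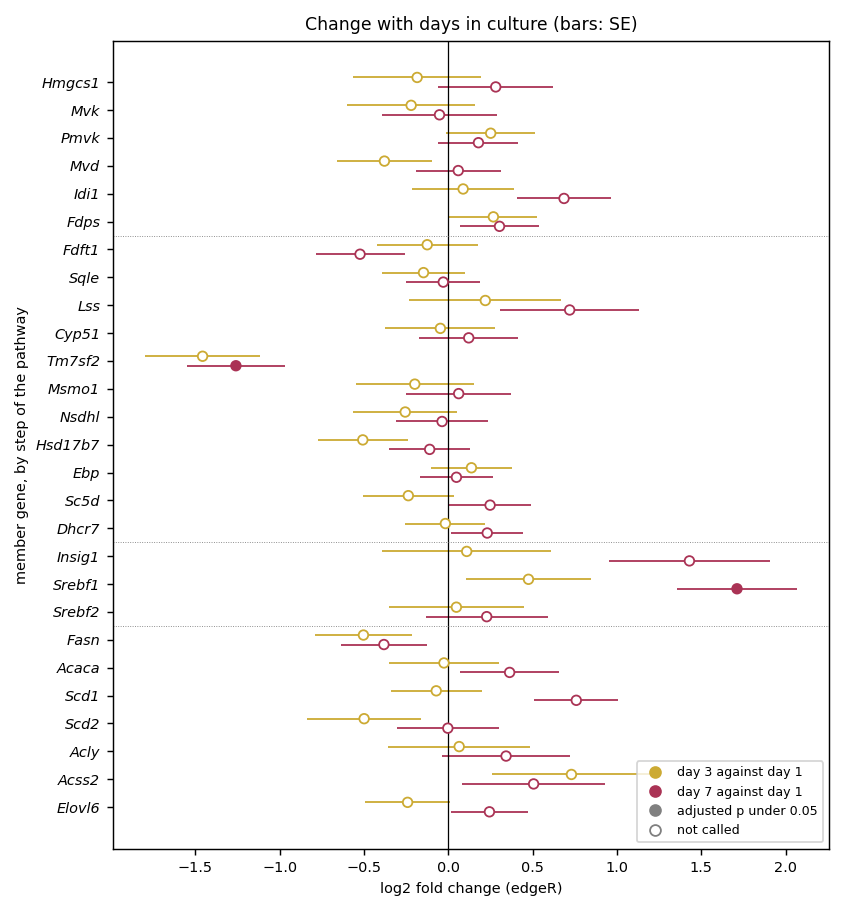
Log2 fold change of each of the 27 genes on day 3 (yellow) and day 7 (red) against day 1, with SE bars, ordered by role (dotted lines separate the roles). Srebf1 (1.71) and Tm7sf2 (-1.26) on day 7 are the 2 filled points, those with an adjusted p under 0.05.

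The second comparison set cycling against non-cycling cells of the same culture. After thinning to 200000 reads, cells in which 3 or more of the division genes Tpx2, Ccnb2, Birc5, Cdk1, Top2a and Mki67 had a read counted as cycling. None of these genes is in the set. The class is a range of a score, and 104 of 695 cells had 2 or 3 of the markers, next to the limit. Cycling cells made up 16.5% to 23.7% of a day 1 culture, 56.9% to 70.2% of a day 3 culture and 25.3% to 87.0% of a day 7 culture. The main test used the 8 cultures of days 3 and 7, with between 9 and 60 cells in a class.

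In these cultures 7 cholesterol genes were higher in cycling cells, and no gene of the set was lower. The 7 were Fdps, Idi1, Hmgcs1, Lss, Msmo1, Dhcr7 and Cyp51. That is 7 of 27, or 7 of the 17 cholesterol genes, against 10.7% of the 13196 genes tested (6.48% called higher). All 17 cholesterol genes had a positive difference, with a median log2 of 0.55, beside 7003 of 13196 genes and a median of 0.04 overall. Of the 7 fatty acid genes and 3 regulators none was called. Cycling cells also had more genes with a read in 7 of the 8 cultures, with a culture's median at 5668 to 6666 genes in cycling and 5034.5 to 6408 in non-cycling cells. The median mitochondrial share was the higher in non-cycling cells in 6 of the 8 cultures, among them all 5 of day 7, at 3.57% to 6.83% against 3.23% to 6.20% in cycling cells. The part of this share in the result was not tested. Among cells with at least 5000 genes, 7 of the 27 were called, all higher, against 11.4% of all genes, with Insig1 (log2 0.54, adjusted p = 0.0477) in and Dhcr7 (0.33, adjusted p = 0.194) out. That alternative was chosen after seeing the data.

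Fdps (chr3:89093588-89101959, minus strand) had the largest difference of those called. In cycling cells it measured 403, 450 and 441 CPM on day 3 and 410, 693, 469, 346 and 480 CPM on day 7. In the non-cycling cells of the same cultures it measured 237.5, 368 and 241 CPM, and 277, 318, 170.5, 179 and 205 CPM. It was higher in cycling cells in 8 of 8 cultures, by 1.88-fold (log2 0.91 ± 0.12 SE, edgeR adjusted p = 0.000710).

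Hmgcs1 and Idi1 were also higher in 8 of 8 cultures. Hmgcs1 ranged from 133 to 640 CPM in cycling cells (median 321) and from 113 to 374 CPM in non-cycling cells (median 197), with a log2 difference of 0.66 ± 0.14 (edgeR adjusted p = 0.0106). Idi1 ranged from 100.5 to 371 CPM (median 202) and from 83.8 to 199 CPM (median 115), with a difference of 0.74 ± 0.14 (edgeR adjusted p = 0.00626). The ranges of the classes overlapped, while within each culture the cycling cells had the higher level of both genes. Genes with the same direction in every culture made up 6.96% (higher) of those tested, and 4 of the 27 did so.

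The fourth was Lss, with 42.4 to 318 CPM in cycling cells (median 109) and 35.9 to 106 CPM in non-cycling cells (median 75.3). Its log2 difference was 0.77 ± 0.17 (SE, edgeR adjusted p = 0.0131). Day 7 culture 5 was the lowest and day 7 culture 2 the highest in both classes. Msmo1, the C4-methylsterol oxidase, ranged from 236 to 681 CPM (median 303) in cycling and from 115 to 423 CPM (median 193) in non-cycling cells. It was higher in 7 of 8 cultures, by 0.66 ± 0.15 (edgeR adjusted p = 0.0135). Dhcr7, which makes cholesterol in the last step of one branch, ranged from 109 to 229.5 CPM (median 128) in cycling and from 72.8 to 119.5 CPM (median 88.0) in non-cycling cells. It was higher in 7 of 8 by 0.59 ± 0.11 (edgeR adjusted p = 0.00596).

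Cyp51, the lanosterol demethylase, ranged from 142 to 418 CPM (median 198) in cycling and from 76.3 to 277 CPM (median 142) in non-cycling cells. It was called by a small margin, at 0.56 ± 0.15 in 7 of 8 cultures (edgeR adjusted p = 0.0345). It was not called without day 3 culture 1 or 3 or day 7 culture 2 or 5, with an adjusted p of up to 0.0958. The other 6 remained called in each of the 8 fits that left out 1 culture. Among genes not called, Acss2 had the lowest difference, -0.61 ± 0.24 (adjusted p = 0.147), and Acaca the highest, 0.93 ± 0.57 (adjusted p = 0.373), with the widest error of the set. Few cells carried both genes. The 3 highest cells of a culture gave 33.5% to 68.9% of its Acss2 reads and 18.8% to 78.7% of its Acaca reads. In day 7 culture 2 Acaca measured 34.9 CPM in cycling and 0.576 CPM in non-cycling cells. For Lss, called above, the 3 highest cells gave 43.1% of the reads of that culture.

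With day 3 cultures alone the edgeR test called 0 of the 27, against 3.91% of all genes, with 5 of 27 and 18.8% of all genes at an unadjusted p under 0.05. With day 7 cultures alone it called 4 of the 27, against 3.04% of all genes. The difference between the days was itself tested, and no gene of the 13196 passed (543, or 4.11%, at an unadjusted p under 0.05). Of the 27 genes, 3 had an unadjusted p under 0.05 there, and the median difference was 0.46 higher on day 7.

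Day 1 cultures held 34 cycling cells (11, 14 and 9 per culture), and their comparison was added after seeing the data. Of the 27 genes 25 had a negative difference, with a median log2 of -0.53 beside -0.15 over all genes, and none was called (1.65% of 13799 genes were). At an unadjusted p under 0.05 there were 13 of 27, against 12.7% of all genes. Hmgcs1 measured 143, 201 and 185 CPM in cycling and 238, 348 and 264 CPM in non-cycling cells of day 1 cultures 1 to 3. Fdps measured 153, 308 and 243 CPM in cycling and 258, 441 and 296 CPM in non-cycling cells. Both were lower in cycling cells in all 3 cultures, the opposite of days 3 and 7. Scd1, at 28.6, 20.97 and 6.96 CPM against 76.5, 57.7 and 53.1 CPM, had a difference of -1.91 ± 0.40 (edgeR adjusted p = 0.0799).

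The cycling difference of days 3 and 7 minus that of day 1 was tested in 1 fit over the 11 cultures. None of the 27 genes passed after adjustment over 13223 genes, of which 3, or 0.0227%, did. The smallest adjusted p of the set were 0.0507 for Fdps (log2 1.44 ± 0.22 SE) and 0.0647 for Lss (1.92 ± 0.32), and Hmgcs1, Msmo1 and Dhcr7 each had 0.0959. All 27 differences were positive, beside 8003 of 13223 genes, with medians of 0.95 and 0.16. At an unadjusted p under 0.05 there were 17 of 27, against 8.07% of all genes. Cycling cells of day 1 had more genes with a read than non-cycling cells in all 3 cultures (medians 6763, 6521 and 7634 against 6326, 6268 and 5946).

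**Figure D3:**
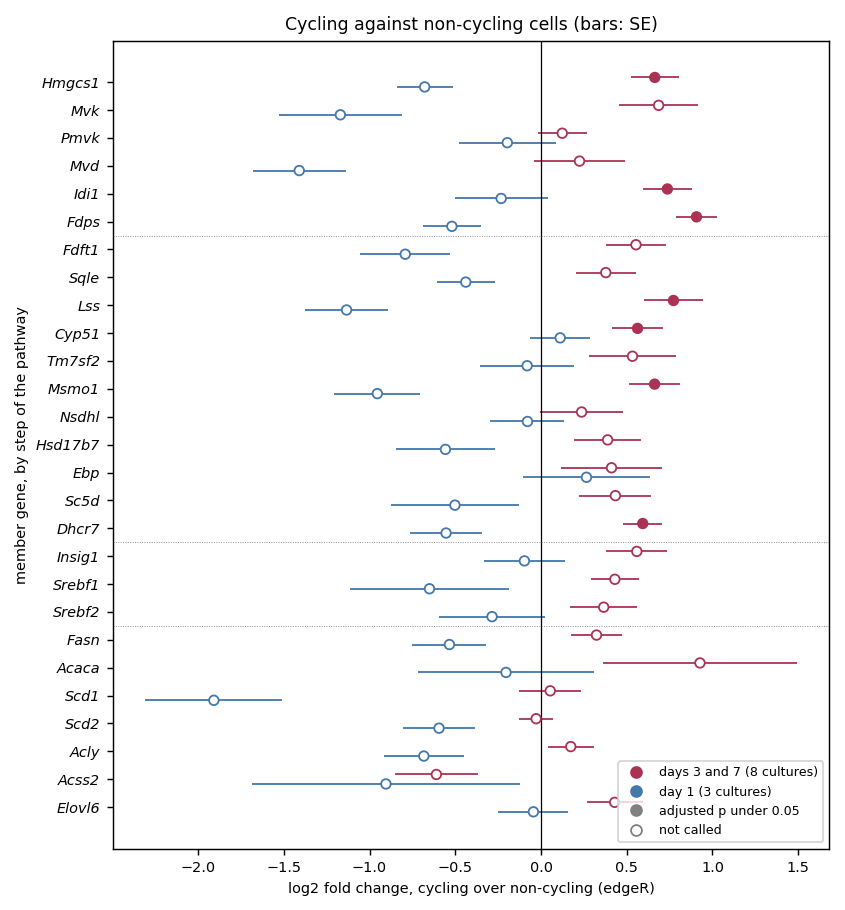
Log2 fold change of the 27 genes in cycling over non-cycling cells, with SE bars, for days 3 and 7 (red, 8 cultures) and day 1 (blue, 3 cultures). The 7 filled red points are called, all between 0.56 and 0.91, whereas 25 of the 27 blue points lie below 0 and none is called.

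The 17 cholesterol genes together took 0.240 ± 0.045% of all reads in day 1 cultures, 0.222 ± 0.034% in day 3 cultures and 0.257 ± 0.070% in those of day 7 (SD, n = 3, 3 and 5). The day 7 cultures spread from 0.181% in culture 5 to 0.364% in culture 2, which covers all cultures of the other days. In non-cycling cells alone the shares were 0.256 ± 0.048% at the start, 0.193 ± 0.013% by day 3 and 0.179 ± 0.041% by day 7. Days 1 and 7 overlapped there, with 0.246% in day 7 culture 2 and 0.231% and 0.225% in day 1 cultures 1 and 3. The fatty acid genes took 0.078%, 0.066% and 0.087% on the 3 days.

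Single cells of 1 culture differed widely. After thinning, the cells of day 3 culture 2 gave between 0.0005% and 0.915% of reads to the cholesterol genes, the widest range of the 11 cultures. The coefficient of variation across cells, averaged over cultures, was 0.711 on day 1, 0.782 on day 3 and 0.657 on day 7. In day 1 culture 2 the median cell had 0.152% if cycling and 0.258% if not. In day 1 culture 1 the values were 0.132% and 0.16%. Day 1 culture 3 went the other way, with 0.1605% in cycling and 0.142% in non-cycling cells.

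**Figure D4:**
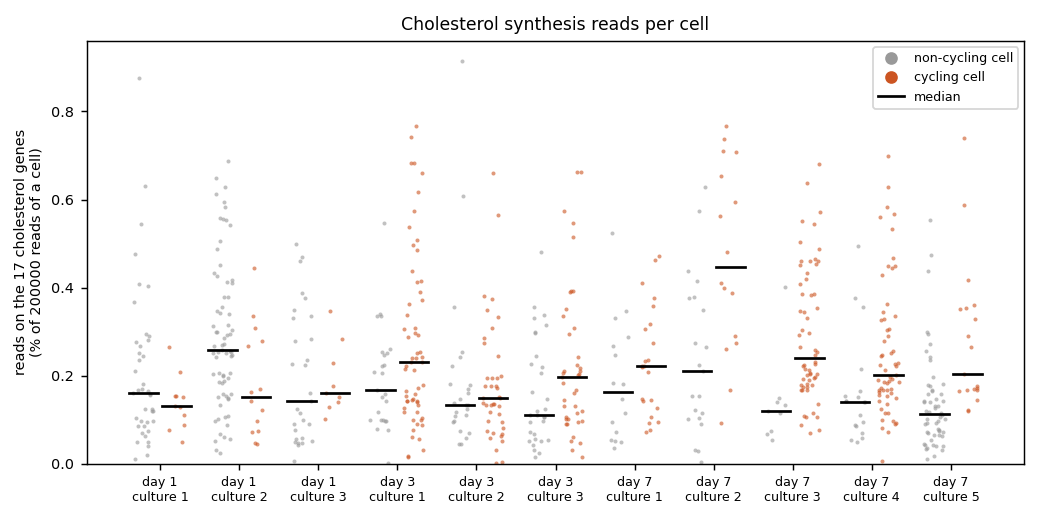
Percent of 200000 reads on the 17 cholesterol genes in each of 695 cells, by culture, for non-cycling (grey) and cycling cells (orange), with medians in black. The cycling median is the higher in all 8 cultures of days 3 and 7 and the lower in day 1 cultures 1 and 2.

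The cholesterol genes varied together from cell to cell. The median Spearman correlation over their 136 pairs lay between 0.224 and 0.401 in the 11 cultures, beside 0.019 to 0.096 over all pairs of the 9669 genes with a read in at least 20% of cells. Pairs of fatty acid genes had medians of 0.036 to 0.247. Cells of 1 culture share their source, and all genes of a cell share its depth and RNA quality, so these values are descriptive. The 9669 genes were not matched to the set for the share of cells with a read. The closest pair was Hmgcs1 and Msmo1 with a median of 0.649 (0.494 to 0.779 across cultures), followed by Hmgcs1 and Idi1 with 0.595. Of the genes outside the enzymes of sterol synthesis, Insig1 was the closest to them (median 0.408), and Acly was next (0.284). The genes of the SREBP factors themselves were lower, at 0.177 for Srebf2 and 0.163 for Srebf1. Tm7sf2 (0.201) and Ebp (0.126) were among the lowest of the cholesterol genes, and Acaca was the lowest of all 27 (0.087). Acaca had a read in 42.4% of cells, Ebp in 53.5%, Srebf1 in 58.8%, Tm7sf2 in 62.7% and Srebf2 in 77.1%. For Hmgcs1 and Msmo1 it was 89.4% and 89.6%. The part of detection in these correlations was not tested.

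**Figure D5:**
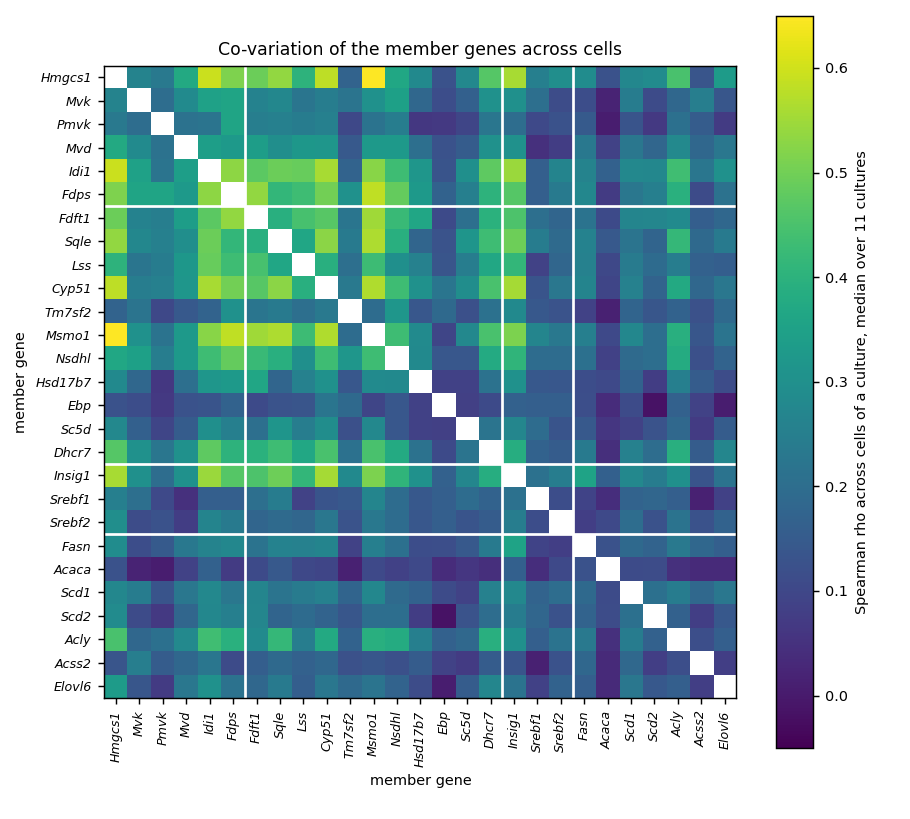
Spearman correlation of each pair of the 27 genes across the cells of a culture (median over 11 cultures), with white lines between roles. The brightest pairs lie in the block from Hmgcs1 to Dhcr7 and with Insig1, up to 0.649 for Hmgcs1 with Msmo1. Other pairs of that block are dim, down to 0.065 for Pmvk with Hsd17b7, and the row of Acaca is the darkest.

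Genes around the pathway were counted from lists fixed by role. Of the 4 genes of SREBP processing, 9 of isoprenoid branches, 7 of sterol export, storage and LXR, 13 of fatty acid elongation, desaturation and supply, and 12 of fatty acid oxidation, none passed the test between any 2 days. In cycling against non-cycling cells, 1 of 13 elongation, desaturation and supply genes was higher (Fads1, the delta-5 desaturase, log2 0.44 ± 0.13 SE, edgeR adjusted p = 0.0492). Of 5 tested export and storage genes 1 was lower (Npc2, a lysosomal cholesterol carrier, log2 -0.59 ± 0.09, adjusted p = 0.00204). Of 11 tested oxidation genes 1 was lower (Acadvl, the dehydrogenase of very long chains, log2 -0.95 ± 0.23, adjusted p = 0.0195). Over all genes tested 6.48% were called higher and 4.22% lower.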

How the data were processed

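Single cells of mouse cochlear organoids were sequenced by SmartSeq2. The authors deposited expected counts (estimated reads per gene and cell, not normalised) in 2 files. STAR 2.5.3a, RSEM 1.3.0 and the builds mm10 and GRCm38 are named in the submitters' processing notes. Whether counting used strand is not given in the sources used here. Of deposited values above 0, 10.6% were not whole, and counts were rounded per cell. The 92 spike-in and 4 transgene rows (0.00451% of reads for the transgenes) were left out.

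Cells needed 50000 reads, 1500 genes and at most 20% mitochondrial reads. Sums per culture were analysed in R 4.3.3 by edgeR 4.0.16 (filterByExpr, TMM, quasi-likelihood F-test, Benjamini-Hochberg over all genes tested, threshold 0.05), in 1 fit over 11 cultures with day as the term. The cycling comparison used sums per culture and class with culture as a block. DESeq2 1.42.0 and limma 3.58.1 served as alternatives, and the fits were checked on simulated counts. Coordinates are from GENCODE M21 for the 23 genes with the same identifier version. SmartSeq2 reads are PCR copies, so depth gives counting precision only.

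All 27 genes are named, with values per culture for those called between days and otherwise for those with the smallest p, and with ranges and medians over the 8 cultures for most of those called in cycling cells. Genes and lists were chosen with earlier results of these data known. Replicate numbers were not taken to pair cultures of different days, since the labels do not say that they do. One list of marker genes of another cell type is not reported here.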

Additional observations from a re-analysis of the deposited data

Results flagged for a closer look

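In 3 of 29 groups tested, 1 culture stood far from the other 4 of its day by Dixon's test. Its limit gives about 1 in 20 by chance for independent groups of normally spread values. The groups here come from the same cultures and in part the same genes, so that rate may not hold. Each of the 3 had day 7 culture 2 as the highest. Insig1 was at 676 CPM there and at 292 CPM in the next culture. Mvd, the mevalonate decarboxylase, was at 128 CPM against 77.3 CPM. Acss2 was at 56.9 CPM against 28.1 CPM. The 3 highest cells of day 7 culture 2 gave 51.0% of its Acss2 reads, 22.5% of its Insig1 reads and 23.0% of its Mvd reads. The same culture had the highest share of reads on the cholesterol genes, 0.364%, while 43.2% of its cells were cycling. The part of these in each other was not tested.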

How the results depend on the processing

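Srebf1 and Tm7sf2 kept their direction between days 1 and 7 in all 24 alternatives each and passed the test in 19. Genes called between days 1 and 3 numbered 259 with DESeq2, 13 without the low-count filter, 52 with limma on mean CPM per cell, 13 with thinned cells, 1 in non-cycling cells, 0 in the first file, 18 in the second, and 0 to 5 when leaving out a culture. Between days 1 and 7 they numbered 2318 with DESeq2, 188 in non-cycling cells, 15 and 125 in the first and second file, and 436 to 1380 when leaving out a culture. Between days 3 and 7 they numbered 639 with DESeq2, 81 in non-cycling cells, 102 with file as a term, 0 and 20 in the first and second file, and 35 to 174 when leaving out a culture. In each file a day with 1 culture was assumed to vary like the others.

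Genes of the set called between days 1 and 7 numbered 0 in non-cycling cells, 0 in the first file, 0 in the second, and 0 to 4 when leaving out a culture. DESeq2 called 1 between days 1 and 3 and 2 between days 3 and 7. In the cycling comparison the genes called numbered 563 for day 3, 393 for day 7, 227 for day 1 and 2517 with DESeq2, and those of the set numbered 0, 4 and 0 for days 3, 7 and 1 alone. On day 1 the log2 differences were reversed in Hmgcs1 (-0.68), Idi1 (-0.23), Fdps (-0.52), Lss (-1.13), Msmo1 (-0.95) and Dhcr7 (-0.55), none of them called there. Idi1 was higher in cycling cells in 1 of the 3 day 1 cultures. Cyp51, also called in the main test, was higher in 2 of the 3. The cause of the reversal was not tested. The cholesterol share of reads on day 7 was 0.179% in non-cycling cells. The 10-letter sterol element was in 0% of the 22 genes of the set with a window.

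With a replicate block the genes called numbered 22, 1031 and 96 for days 1 to 3, 1 to 7 and 3 to 7, and of the set 0, 3 and 0. The correlation of same-numbered cultures was -0.010 to 0.061 over 9 pairs, none above 0.1, so the numbers were not taken to pair cultures.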

Other observations

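Lbr, which encodes the other sterol C14-reductase and also a nuclear envelope protein, is not in the set and was chosen after its values were seen. It measured 35.0, 23.1 and 28.8 CPM on day 1, 80.4, 48.9 and 42.6 CPM on day 3, and 102.6, 108.7, 113.6, 124.0 and 69.3 CPM on day 7. Every later culture was above every day 1 culture, the opposite order to Tm7sf2. The rise from day 1 to day 7 was 1.84 ± 0.27 (SE) on the log2 scale (edgeR adjusted p = 0.00306), and Lbr was also higher in cycling cells of days 3 and 7, by 1.31 ± 0.25 (adjusted p = 0.00613).

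Among the related genes, those with the smallest adjusted p from day 1 to day 7 were Dhdds, of dolichol synthesis (log2 0.84 ± 0.25 SE, edgeR adjusted p = 0.0573), Hadhb, of fatty acid oxidation (0.65 ± 0.19, adjusted p = 0.0600), and Me1, the NADPH-forming malic enzyme (-0.93 ± 0.28, adjusted p = 0.0633). None of them passed the threshold.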
